A study of Rattus norvegicus with 12 samples.

Results

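The genes described here carry noradrenaline and acetylcholine signals in heart muscle: the adrenoceptors Adrb1, Adra1a and Adra1b, the muscarinic receptor Chrm2, the adenylyl cyclases Adcy5 and Adcy6, and the noradrenaline-synthesis enzymes Th and Dbh. They were followed across the left ventricle of rats kept with different amounts of exercise. All 8 genes were found, on 10 probe sets of the 31042 that are not control features, by taking each probe set whose single annotated gene symbol is one of these names. The set was chosen partly on measured values: it was put together by function, and the lower Dbh level of exercised than of sedentary rats was already known. All Dbh values and all member differences between exercised and sedentary arrays are therefore descriptions, with no test.

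RNA came from female Sprague-Dawley rats (Charles River) aged 16 months and was hybridised to Affymetrix Rat Genome 230 2.0 arrays. A probe set there consists of several short probes, and 436 probe sets are annotated with several gene symbols. EX rats could exercise voluntarily throughout life, PA rats were active in a large box for 1 h, 2 times a week, and SED rats lived in a standard cage only. Each group has 4 arrays. The design text states 12 animals per group, pooled by 4 for an array. That would make 3 arrays and not 4, so which animals stand behind which array was not settled. P-values therefore reflect only how these arrays vary, which may be partly technical. All values are log2 expression as deposited, so a difference of 1 is a doubling of the signal. Arrays have no read depth, and their number limits the precision of every value.

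Sympathetic nerves release noradrenaline onto heart muscle cells. Th, tyrosine hydroxylase, is the rate-limiting enzyme of its synthesis, and Dbh, dopamine beta-hydroxylase, makes the last step from dopamine to noradrenaline inside the storage vesicles. Both genes are transcribed mainly in the cell bodies of sympathetic neurons, most of which lie in ganglia outside the ventricle. Adrb1 encodes the beta-1 receptor, which acts through the stimulatory G protein on adenylyl cyclase to raise cyclic AMP, contraction force and heart rate. Adcy5 and Adcy6 are the main adenylyl cyclases of the heart muscle cell. Adra1a and Adra1b are alpha-1 receptors, which act through Gq and phospholipase C. Chrm2, the M2 muscarinic receptor, receives acetylcholine from vagal nerves, lowers cyclic AMP through the inhibitory G protein and opens potassium channels, and is denser in the atria than in the ventricles.

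The promoters of the 2 synthesis enzymes are shown because Dbh is the gene that drew attention to this set and Th acts before it on the same path. Each window runs from 250 bases before to 50 bases after the RefSeq gene start in the GRCr8 build, 5′ to 3′ on the strand of the gene, at chr3:30886078-30886377 on the plus strand for Dbh and at chr1:207508169-207508468 on the minus strand for Th. Capitals mark the letters TGACG and CGTCA, the half-site of the cyclic AMP response element on either strand, and ATTA and TAAT, the core bound by homeodomain factors on either strand; where matches overlap they run together.
Dbh: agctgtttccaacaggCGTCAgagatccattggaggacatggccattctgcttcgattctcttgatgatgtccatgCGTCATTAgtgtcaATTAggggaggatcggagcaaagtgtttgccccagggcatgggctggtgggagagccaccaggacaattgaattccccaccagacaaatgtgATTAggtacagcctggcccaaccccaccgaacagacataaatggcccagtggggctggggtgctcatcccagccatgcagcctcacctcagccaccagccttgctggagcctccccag
Th: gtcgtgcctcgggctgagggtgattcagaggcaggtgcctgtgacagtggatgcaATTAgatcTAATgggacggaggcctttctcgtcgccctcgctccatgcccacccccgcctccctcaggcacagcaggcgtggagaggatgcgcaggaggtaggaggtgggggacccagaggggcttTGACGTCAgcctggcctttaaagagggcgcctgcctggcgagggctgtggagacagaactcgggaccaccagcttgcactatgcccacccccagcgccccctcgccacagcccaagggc

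The Th window holds the full element TGACGTCA, starting 69 bases before the gene start, which 1.83% of the 33469 promoter windows of the same length hold. The Dbh window holds 2 half-sites, starting 234 and 174 bases before the start, and 3 homeodomain cores, the first of which begins on the last letter of the nearer half-site. A half-site on either strand is present in 21.2% of all windows and a homeodomain core in 60.6%. Promoter windows were matched for 6 of the 8 genes, and Adra1a and Adcy6 had none. The Adrb1 window has 1 half-site and no homeodomain core, and the Adcy5 window has 1 homeodomain core and no half-site. These are matches of letters and describe only the windows searched.

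The table carries no detection calls, so the level of probe sets that should be silent in heart was used to judge background: 31 probe sets of olfactory and vomeronasal receptors, with a median of 3.19. A probe set was called near background if its mean over all 12 arrays lay at or under the 95th percentile of these, 4.85. Under this rule 3 of the 10 probe sets were near background: Th at 3.50, Adrb1 at 3.95 and Adra1a at 4.10. Just above the limit lay Chrm2 at 4.97, the dimmer Adcy5 probe set (1390038_at) at 4.99 and Dbh at 5.10. Adcy6 on its dimmer probe set (1386876_at) stood at 5.33 and Adra1b at 5.38. The highest of the silent-gene probe sets read 5.73, so these 5 are not clearly apart from background. Well above it lay the brighter probe sets of Adcy6 (1367644_at) at 7.41 and Adcy5 (1368298_at) at 8.23, at the 69.9th and 77.9th percentiles of all probe sets. The 3 probe sets near background were also under the filter for testing, the upper 60% by mean (4.94 and above), which the other 7 passed. The dimmer Adcy5 probe set passed it only through its SED level, so no test of it is given. All 9 ventricular muscle markers on the array were above the limit, and their mean was 13.04 to 13.11 on every array.

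**Figure D1:**
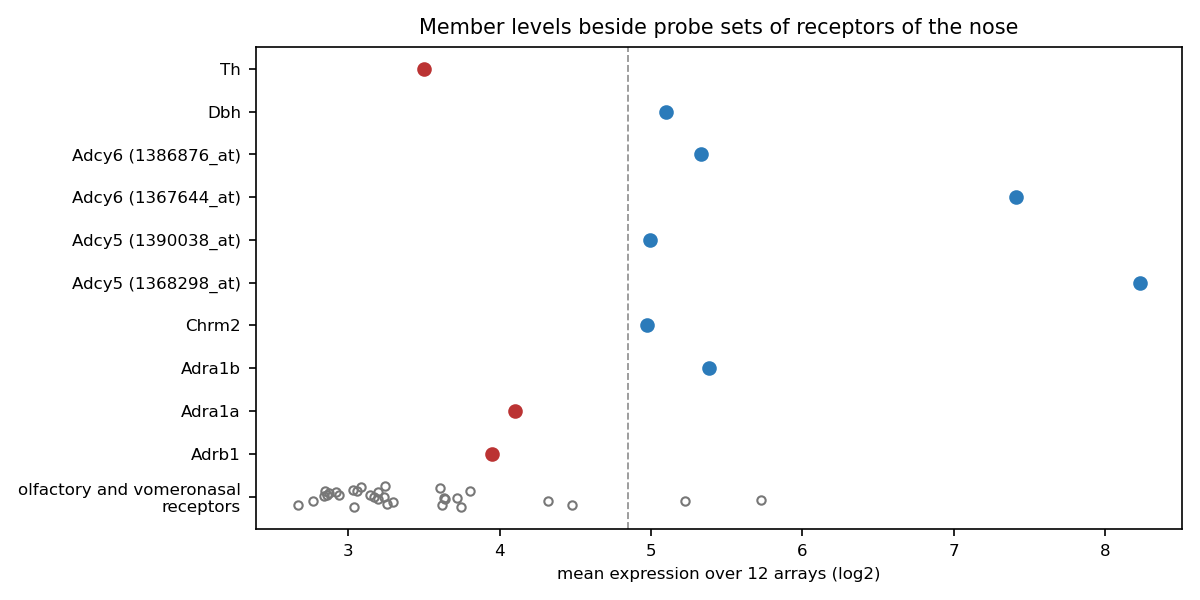
Mean log2 expression over 12 arrays of each member probe set (filled points; red at or under the limit, blue above it) and of the 31 olfactory and vomeronasal receptor probe sets (open points, spread vertically for legibility). The dashed line is their 95th percentile, 4.85; Th, Adrb1 and Adra1a lie under it, and the brighter Adcy5 and Adcy6 probe sets lie far above it.

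The arrays had like medians, 5.64 to 5.72, but the interquartile range was 3.58 to 3.86 in SED and 3.89 to 4.04 in EX and PA. Dim probe sets read higher in SED: under the filter the median difference from SED was -0.13 for EX and -0.15 for PA, while over tested probe sets it was 0.055 and 0.062. The silent-gene probe sets had median differences of -0.07 and -0.11. The array SED 1 stood apart, with a mean correlation with the other arrays of 0.964 against 0.987 to 0.989 for the rest. It was the highest of the 12 arrays for 6 of the 10 member probe sets, for 27.1% of all probe sets and for 51.6% of the silent-gene probe sets, and most members are dim. Each member's difference from SED is therefore also given without SED 1, and that of a pathway gene where it moves by more than 1.5 times. The part of this general shift in the differences of dim members and dim pathway genes was not tested.

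Dbh (1370564_at) was lower in both activity groups than in SED. Its log2 expression was 5.66, 5.35, 5.10 and 5.30 on SED 1 to SED 4, 4.91, 5.08, 5.07 and 5.0 on PA 1 to PA 4, and 4.86, 5.11, 4.71 and 5.03 on EX 1 to EX 4. All PA arrays lay under all SED arrays, while EX 2, at 5.11, lay just over SED 3, at 5.10. The group means were 5.35 ± 0.23 in SED, 5.02 ± 0.079 in PA and 4.93 ± 0.18 in EX (SD, n = 4 each). The EX mean lay under the SED mean by a difference of -0.42 ± 0.13 (SE), which is -25.5% in linear signal. The PA mean differed from SED by -0.34 ± 0.13 (SE). EX and PA overlapped and differed by -0.087 ± 0.13 (SE), less than their spread. Without SED 1 the differences from SED were -0.32 ± 0.11 and -0.24 ± 0.11 (SE). After quantile normalization, which gives all arrays 1 distribution, they were -0.39 and -0.31. EX against SED is the contrast on which Dbh was chosen and the others share its arrays, so none of these values is independent support for the difference.

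The enzyme before it, Th (1387075_at), read near background on every array. Its log2 expression was 3.67, 3.59, 3.52 and 3.74 on SED 1 to SED 4, 3.30, 3.29, 3.53 and 3.43 in PA, and 3.45, 3.59, 3.41 and 3.43 in EX. The SED arrays were highest on average, and both other groups overlapped them. The mean was 3.63 ± 0.096 in SED, 3.39 ± 0.11 in PA and 3.47 ± 0.082 in EX (SD, n = 4 each), with differences from SED of -0.24 ± 0.09 for PA and -0.16 ± 0.09 for EX (SE). Without SED 1 these were -0.23 and -0.15, and after quantile normalization -0.12 and -0.051. At this level, 64.5% of the silent-gene probe sets were as dim or dimmer, so Th was not told apart from background.

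In these bulk samples, fewer cells of a type and less RNA per cell cannot be told apart. Of 15 sympathetic neuron markers on the array, 9 were near background. Among those were Phox2a, a transcription factor that drives the noradrenergic fate, at 3.74, and the noradrenaline transporter Slc6a2 at 4.80. Slc6a2 had its highest mean in SED, 5.03 ± 0.18, against 4.62 ± 0.15 in PA and 4.75 ± 0.17 in EX (SD, n = 4 each), the SED arrays lying above all PA arrays. Slc18a2, at 8.90, had its lowest mean in SED, 8.65 ± 0.49, against 9.06 ± 0.17 in PA and 8.98 ± 0.16 in EX (SD, n = 4 each). Its differences from SED, 0.41 for PA and 0.33 for EX, were 0.17 and 0.089 without SED 1. Of the 15, 5 were higher and 10 lower in PA than in SED, and 6 higher and 9 lower in EX. The mean over the neuron list was 5.02 to 5.17 in SED, 4.95 to 5.06 in PA and 4.95 to 5.12 in EX, so the groups overlapped. Npy, the co-transmitter of sympathetic nerves, was above background, with means of 6.92 ± 0.57 in SED, 7.09 ± 0.67 in PA and 7.77 ± 0.36 in EX (SD, n = 4 each). Hand2, Gata3 and Prph, also above the limit, had their highest mean in SED. In SED, PA and EX, Hand2 was at 7.90, 7.73 and 7.67, Gata3 at 6.14, 5.83 and 5.79, and Prph at 5.36, 5.24 and 5.17. Gap43 had its lowest mean in SED, with 5.44, 5.61 and 5.57 in the same order. Of the 6 Schwann cell markers found, 5 were near background, among them S100b at 4.09, and Pmp22, which other cells also express, was at 10.64. The Schwann list averaged 5.24 to 5.76 in SED, 5.16 to 5.33 in PA and 5.14 to 5.33 in EX. It was highest in SED 1, which was also the highest array for 51.6% of the silent-gene probe sets. The part of nerve content in the Dbh difference was not tested. Other cell types were followed by the mean of their markers too. Leukocyte markers spanned 6.42 to 7.69 in SED, 6.64 to 7.12 in PA and 6.53 to 6.86 in EX, with 13 of 14 lower on average in EX than in SED. Endothelial markers averaged 10.79 ± 0.14 in SED, 10.71 ± 0.032 in PA and 10.68 ± 0.079 in EX, and fibroblast markers 10.25 ± 0.22, 10.39 ± 0.15 and 10.32 ± 0.035 (SD, n = 4 each). Smooth muscle markers averaged 6.23 ± 0.074, 6.11 ± 0.036 and 6.23 ± 0.13, and adipocyte markers 5.42 ± 0.041, 5.36 ± 0.043 and 5.37 ± 0.12, in the same order (SD, n = 4 each).

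**Figure D2:**
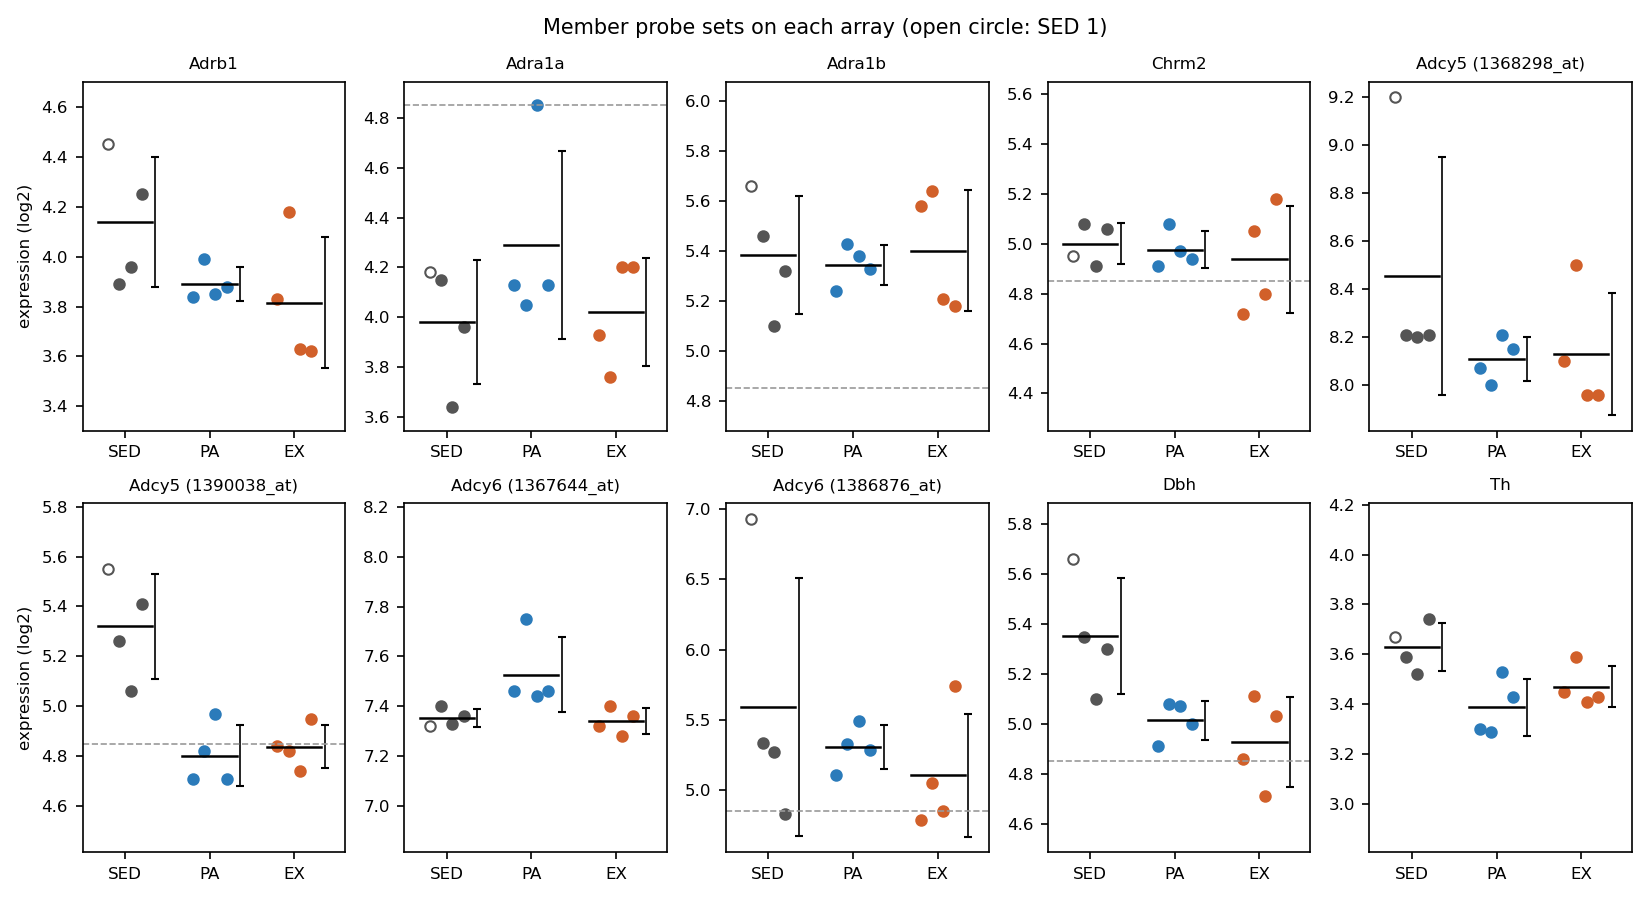
Log2 expression of each member probe set on the 4 SED, 4 PA and 4 EX arrays (points; the open circle is SED 1), with the group mean (horizontal line) and SD (bar); each panel has its own range of the vertical axis, and the dashed line is the background limit of 4.85 where it falls in that range. For Dbh and the dimmer Adcy5 probe set all PA arrays lie under all SED arrays, and in the brighter Adcy5 and dimmer Adcy6 panels SED 1 lies far above the rest.

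The receptor of sympathetic drive in the muscle cell, Adrb1 (1369806_at), read near background as well. Its log2 expression was 4.45, 3.89, 3.96 and 4.25 on SED 1 to SED 4, 3.84, 3.99, 3.85 and 3.88 in PA, and 3.83, 4.18, 3.63 and 3.62 in EX. The groups overlapped, and the means ran from 4.14 ± 0.26 in SED over 3.89 ± 0.069 in PA to 3.82 ± 0.26 in EX (SD, n = 4 each). The EX mean differed from SED by -0.32 ± 0.15 (SE), or by -0.22 ± 0.14 without SED 1 and by -0.21 after quantile normalization. For PA the difference was -0.25 ± 0.15 (SE), or -0.14 ± 0.14 without SED 1 and -0.12 after quantile normalization.

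Of the alpha-1 receptors, Adra1a (1369797_at) was near background and Adra1b (1368574_at) above it. Adra1a read 4.18, 4.15, 3.64 and 3.96 on SED 1 to SED 4, 4.13, 4.05, 4.85 and 4.13 in PA, and 3.93, 3.76, 4.20 and 4.20 in EX. PA 3 stood above the other 11 arrays, and the groups overlapped. The PA mean was above SED by 0.31 ± 0.19 (SE), and by 0.12 without PA 3, while EX differed from SED by 0.04 ± 0.19 (SE). Without SED 1 the 2 differences from SED were 0.37 and 0.11.

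Adra1b read 5.66, 5.46, 5.10 and 5.32 on SED 1 to SED 4, 5.24, 5.43, 5.38 and 5.33 in PA, and 5.58, 5.64, 5.21 and 5.18 in EX. Its group means, 5.38 ± 0.24, 5.35 ± 0.081 and 5.40 ± 0.24 (SD, n = 4 each), lay closer together than the arrays of any group. The PA against SED difference was -0.04 (95% interval -0.35 to 0.27, limma adjusted p = 0.914) and turned to 0.052 without SED 1. EX against PA gave 0.058 (95% interval -0.25 to 0.36, limma adjusted p = 1), and -0.022 without EX 2. EX differed from SED by 0.017 ± 0.14 (SE), by 0.11 without SED 1 and by -0.015 with arrays weighted by quality.

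Chrm2 (1369245_at) also had close group means. It read 4.95, 5.08, 4.91 and 5.06 on SED 1 to SED 4, 4.91, 5.08, 4.97 and 4.94 in PA, and 4.72, 5.05, 4.80 and 5.18 in EX. The EX arrays spanned the whole range, with EX 1 the lowest of all 12 and EX 4 the highest. The means were 5.0 ± 0.083 in SED, 4.98 ± 0.074 in PA and 4.94 ± 0.21 in EX (SD, n = 4 each). PA differed from SED by -0.025 (95% interval -0.26 to 0.21, limma adjusted p = 0.931), or by -0.042 without SED 1 and 0.055 after quantile normalization. EX differed from PA by -0.037 (95% interval -0.28 to 0.20, limma adjusted p = 1). Without EX 1 that difference was 0.035. EX differed from SED by -0.062 ± 0.11 (SE), by -0.079 without SED 1 and by 0.0087 after quantile normalization. The mean of the 10 atrial markers split the EX arrays in the other order, at 9.60 and 9.79 on EX 1 and EX 3 and at 8.94 and 8.90 on EX 2 and EX 4. Most of this split came from Myl7, the atrial myosin light chain, which read 10.12, 4.09, 10.88 and 4.23 on EX 1 to EX 4. Without Myl7 the mean of the other 9 was 9.54, 9.48, 9.67 and 9.42. The part of atrial tissue in the Chrm2 spread was not tested.

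Adcy5, with 2 probe sets, had lower means in both activity groups than in SED on each, but for the brighter one the size rested on SED 1. The brighter probe set (1368298_at) read 9.20, 8.21, 8.20 and 8.21 on SED 1 to SED 4, 8.07, 8.0, 8.21 and 8.15 in PA, and 8.10, 8.50, 7.96 and 7.96 in EX. SED 1 was about 1 log2 unit above the other SED arrays, which were level with the top of PA. The difference from SED was -0.35 ± 0.21 for PA (SE, limma adjusted p = 0.443) and -0.33 ± 0.21 for EX, and without SED 1 it was -0.099 ± 0.13 and -0.077 ± 0.13 (SE).

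The dimmer Adcy5 probe set (1390038_at) gave the widest separation among the members. It read 5.55, 5.26, 5.06 and 5.41 on SED 1 to SED 4, 4.71, 4.82, 4.97 and 4.71 in PA, and 4.84, 4.82, 4.74 and 4.95 in EX. All 4 SED arrays lay above all 8 arrays of the activity groups, whose means, 4.80 ± 0.12 and 4.84 ± 0.087 (SD, n = 4 each), were under the background limit. The SED mean was 5.32 ± 0.21. PA differed from SED by -0.52 ± 0.11 (SE) and by -0.44 ± 0.11 without SED 1. EX differed from SED by -0.48 ± 0.11 (SE), and by -0.41 ± 0.11 without SED 1. EX and PA differed by 0.035 (95% interval -0.21 to 0.28).

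Adcy6, the close relative of Adcy5, showed another order on its brighter probe set (1367644_at). It read 7.32, 7.40, 7.33 and 7.36 on SED 1 to SED 4, 7.46, 7.75, 7.44 and 7.46 in PA, and 7.32, 7.40, 7.28 and 7.36 in EX. Every PA array lay above every SED and EX array, with PA 2 well above the other PA arrays. The PA mean was above SED by 0.17 (95% interval -0.018 to 0.37, limma adjusted p = 0.365) and EX was under PA, at -0.19 (95% interval -0.38 to 0.0052, limma adjusted p = 1). SED and EX were level, 7.35 ± 0.036 and 7.34 ± 0.052 (SD, n = 4 each), and differed by -0.013 ± 0.088 (SE). Without SED 1 PA against SED was 0.16 and EX against SED -0.023. Without PA 2 the PA against SED difference was 0.10 and the EX against PA difference -0.11. After quantile normalization PA against SED was 0.054, EX against PA -0.20 and EX against SED -0.14.

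The dimmer Adcy6 probe set (1386876_at) did not follow the brighter one. It read 6.93, 5.34, 5.27 and 4.83 on SED 1 to SED 4, 5.11, 5.33, 5.49 and 5.29 in PA, and 4.79, 5.05, 4.85 and 5.74 in EX. SED 1 was more than 1 log2 unit above every other array. PA differed from SED by -0.29 ± 0.37 (SE, limma adjusted p = 0.726) and by 0.16 ± 0.22 without SED 1, and EX by -0.48 ± 0.37 and by -0.039 ± 0.22.

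Read together, 8 of the 10 member probe sets, Dbh among them, had a lower mean in EX than in SED. In PA 8 of 10 were lower than in SED, and the median differences were -0.24 and -0.25. After quantile normalization it was 7 of 10 in each, with medians of -0.17 and -0.12. Of all 12416 probe sets under the filter, 9330 were lower in EX and 9815 in PA. Of the 18626 tested, 7420 and 7187 were lower. Without SED 1, Adra1b and the dimmer Adcy6 probe set turned higher in PA than in SED, at 0.052 and 0.16. Nothing is read from these counts of lower means. The groups did not overlap on 1 member probe set in EX against SED, where 9.0% of all probe sets do not overlap, and this count is a description of the contrast used for the choice. In PA against SED they did not overlap on 3 of 10 (Dbh, Adcy5 on 1390038_at and Adcy6 on 1367644_at), against 10.1% of all probe sets, and in EX against PA on 1 of 10 (Adcy6 on 1367644_at), against 2.52%. Of the 3, Dbh was part of the choice of the set, and the dimmer Adcy5 probe set passed the filter only through SED. Nothing is read from that count. Of the member probe sets that passed the filter, Dbh and the dimmer Adcy5 one are left aside in what follows. By limma with Benjamini-Hochberg adjustment, none of the others was called in PA against SED, where 0% of 18626 were called. None had an unadjusted limma p under 0.05 there, beside 15.2% of all tested probe sets. In EX against PA none of these members was called either, with 0% of all called. None had an unadjusted limma p under 0.05 in that comparison, against 2.87% of all tested probe sets.

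**Figure D3:**
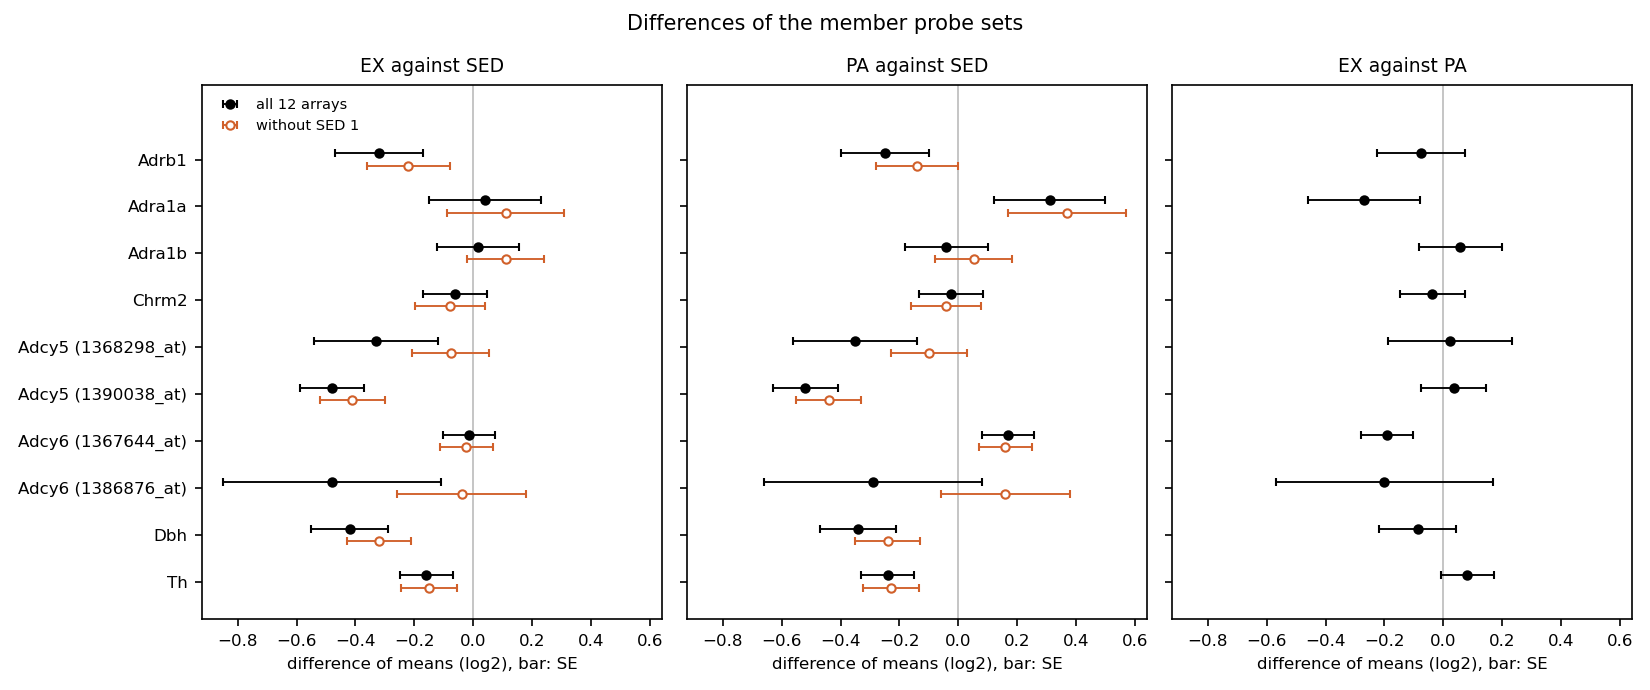
Difference of group means (log2) of each member probe set in the 3 comparisons, with the limma SE as bars; black points use all 12 arrays and open points leave out SED 1. The brighter Adcy5 and dimmer Adcy6 probe sets move towards 0 or past it without SED 1, while Dbh goes from -0.42 to -0.32 and the dimmer Adcy5 probe set from -0.48 to -0.41 in EX against SED.

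Around these members, 75 other genes of the pathway were tested, from 9 lists with 122 entries of which 108 were on the array. By limma with Benjamini-Hochberg adjustment 0 of 75 were called in any of the 3 comparisons. In EX against SED, where 0% of all tested probe sets were called, 10 were higher and 3 lower at an unadjusted limma p under 0.05, or 17.3% against 15.6% of all tested probe sets. In PA against SED the counts were 6 higher and 5 lower, 14.7% against 15.2%, and in EX against PA 1 higher and 0 lower, 1.33% against 2.87%. The 10 in EX against SED include Cyb561 and Pts, and the 1 in EX against PA is Cyb561. Both genes passed the filter only through EX. The 5 lower in PA against SED include Grk4, which passed it only through SED. Nothing is read from these genes in the counts.

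Of 15 other genes on the array that make, store, take up or break down catecholamines, 9 were tested. These mostly had higher means in both activity groups than in SED. The rest, among them Slc6a2, were under the filter, where probe sets read higher in SED. In PA against SED 9 of 9 tested were higher, where 11342 of all 18626 tested probe sets were higher. The median difference was 0.25 against 0.048 over 10244 genes. It was 0.13 without SED 1 and 0.20 after quantile normalization. EX against PA was split 5 higher to 4 lower with a median of 0.0025. In EX against SED, of 9 tested, 8 had a higher mean in EX than in SED and 1 a lower one. Of all 18626 tested probe sets, 11125 were higher. The median difference was 0.33 against 0.032 over 10244 genes, and 0.10 without SED 1. After quantile normalization 7 were higher and 2 lower. The 8 and the median include Cyb561 and Pts, which passed the filter only through EX. Nothing is therefore read from this count and median in EX against SED beside those of all genes. Both are also among the 5 higher in EX against PA. Cyb561, the vesicle membrane cytochrome that supplies electrons for the reaction of Dbh, read 5.66 to 6.59 in EX, 4.26 to 5.14 in SED and 4.27 to 5.51 in PA. All EX arrays lay above all others. SED and PA, at 4.72 ± 0.38 and 4.73 ± 0.56 (SD, n = 4 each), were under both the background limit and the filter, which Cyb561 passed only through EX, at 6.03 ± 0.42. Its differences, 1.31 ± 0.29 from SED and 1.30 ± 0.29 from PA (SE), are therefore given with no test. Maoa, the monoamine oxidase that degrades noradrenaline, was above SED in EX by 0.37 ± 0.12 (SE, limma adjusted p = 0.181), also without overlap. Pts, which makes the cofactor of Th, likewise passed only through EX. Its EX arrays ran from 4.81 to 6.53 and its SED arrays from 3.70 to 5.21, with SED and PA means, 4.52 ± 0.62 and 4.82 ± 0.23 (SD, n = 4 each), under the background limit.

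Among other adrenoceptors, Adra2c, an inhibitory receptor of nerve endings, read 5.34 to 5.52 in EX, 5.35 to 5.62 in PA and 5.58 to 6.22 in SED. EX was under SED by a difference of -0.47 ± 0.13 (SE, limma adjusted p = 0.146), and PA by -0.42 ± 0.13 (SE, limma adjusted p = 0.207). Adra1d differed by 0.23 ± 0.14 and Adra2b by 0.037 ± 0.20 in EX against SED (SE), and Adra2b by 0.22 without SED 1. Adra2c and Adra1d, with means of 5.62 and 5.07 over all arrays, read under the highest silent-gene probe set, at 5.73. They are therefore not clearly apart from background. The 1 tested gene of acetylcholine handling, Bche, a cholinesterase, had EX above SED by 0.64 ± 0.18 (SE, limma adjusted p = 0.157) and PA by 0.50 ± 0.18 (SE, limma adjusted p = 0.259). The other 7 genes of that list on the array were under the filter.

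Of other adenylyl cyclases, Adcy3, Adcy4 and Adcy9 differed by -0.10 ± 0.16, 0.22 ± 0.34 and -0.0075 ± 0.43 in EX against SED (SE). Without SED 1 the values for Adcy4 and Adcy9 were -0.21 and -0.53. Adcy3 and Adcy9, with means of 5.07 and 5.54 over all arrays, were likewise not clearly apart from background. Heterotrimeric G protein subunits had 10 of 16 tested members higher and 6 lower in EX against SED, with a median of 0.064, and 8 each way after quantile normalization. Their smallest p over the groups belonged to Gng10, a gamma subunit at 0.25 ± 0.13 and at 0.14 without SED 1, and Gnb3, a beta subunit at -0.30 ± 0.17, while Gnao1, an inhibitory-class alpha subunit, was at 0.53 ± 0.42 and at 0.027 without SED 1. A further Gnb3 probe set gave 0.085.

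Receptor kinases, arrestins and RGS proteins were split 6 higher and 7 lower of 13 in EX against SED, with a median of -0.012, and 4 higher and 9 lower after quantile normalization. Rgs19, which speeds the shut-off of inhibitory G proteins, read 4.70 to 5.17 in EX and 5.23 to 5.74 in SED, a difference of -0.51 ± 0.13 (SE, limma adjusted p = 0.134). Its mean of 5.19 lay under the highest silent-gene probe set, at 5.73, so Rgs19 was not clearly apart from background. Grk5, a receptor kinase of heart muscle, differed by 0.33 ± 0.15 (SE). Grk4, which passed the filter only through SED, differed by -0.32 ± 0.19 (SE) and by -0.12 without SED 1. Phosphodiesterases, which degrade cyclic AMP and cyclic GMP, had 7 of 8 tested members higher in EX against SED, with a median of 0.11, and 6 of 8 after quantile normalization. Pde4a differed by -0.19 ± 0.11, Pde7a by 0.36 ± 0.24 and Pde9a by 0.33 ± 0.23 (SE). Without SED 1 these were -0.10, 0.11 and 0.17.

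Downstream effectors had 11 of 18 tested members higher and 7 lower in EX against SED, with a median of 0.14 and of 0.12 without SED 1. Kcnj3, a subunit of the potassium channel that Chrm2 opens, read 9.52 to 9.69 in EX, 9.30 to 9.89 in PA and 8.94 to 9.31 in SED. It was above SED by 0.47 ± 0.13 in EX (SE, limma adjusted p = 0.144) and by 0.48 ± 0.13 in PA (SE, limma adjusted p = 0.185), and a further probe set gave 0.42 in EX against SED. Kcnj3 is also 1 of the 10 atrial markers, and the part of atrial tissue in its differences was not tested. Plcb1, the phospholipase C on the alpha-1 receptor path, differed by 0.70 ± 0.17 in EX (SE, limma adjusted p = 0.134) and by 0.53 ± 0.17 in PA (SE, limma adjusted p = 0.224), with all PA arrays above all SED arrays. Rapgef4, a cyclic AMP sensor, was at 0.26 ± 0.10 in EX and 0.30 ± 0.10 in PA (SE). Of factors that support sympathetic neurons, Gdnf was at -0.27 ± 0.12 in EX and -0.32 ± 0.12 in PA, Ntf3 at 0.035 ± 0.19 and -0.30 ± 0.19, and Ret at 0.45 ± 0.34 and 0.33 ± 0.34, each against SED (SE). Without SED 1, Ntf3 was at 0.17 and -0.16 and Ret at 0.17 and 0.049. Gdnf, with a mean of 5.36, lay under the highest silent-gene probe set, at 5.73, and was not clearly apart from background.

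**Figure D4:**
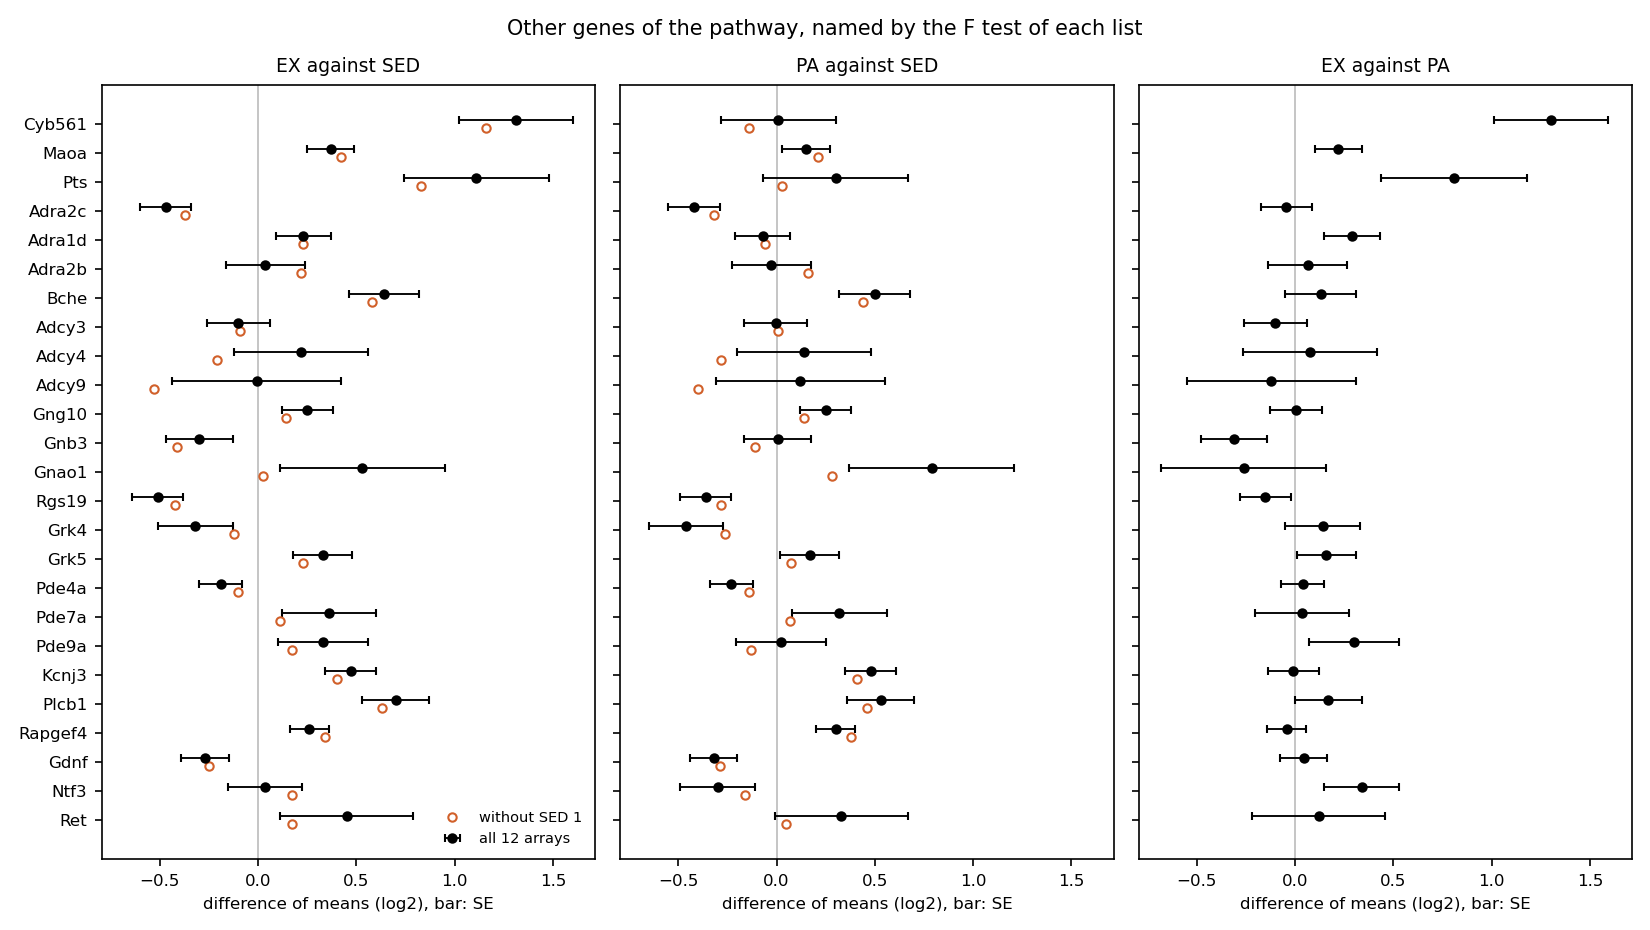
Difference of group means (log2) with the limma SE for the 25 genes named from the pathway lists, in the 3 comparisons; black points use all 12 arrays and open points leave out SED 1. Cyb561 stands at 1.31 in EX against SED and 1.30 in EX against PA but at 0.01 in PA against SED, and Gnao1, Adcy4 and Adcy9 shift most when SED 1 is left out.

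The profile of Dbh over the 12 arrays was also set against 10243 other genes, by the root mean square difference of log2 values after each gene was centred on its own mean. A flat profile differs from Dbh by 0.238. The nearest genes were Tgfbr3, a co-receptor of the TGF-beta family, at 0.0648, Dnah17, a dynein chain, at 0.0778, Flt4, a receptor of lymphatic endothelium, at 0.0866, Fbxo41 at 0.088 and Pask at 0.0888. Tgfbr3 read 5.89 to 6.36 in SED, 5.73 to 5.91 in PA and 5.60 to 5.84 in EX. All 5 had their highest group mean in SED, which follows from their choice by likeness to Dbh and is no further result. Their means over all arrays were 4.99 to 5.89. Among the members, the dimmer Adcy5 probe set was nearest to Dbh, at 0.122, then Adrb1 at 0.147 and Th at 0.171, while Adra1a, at 0.373, and both Adcy6 probe sets, at 0.268 and 0.417, were farther from Dbh than a flat profile.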

How the data were processed

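Left ventricular RNA was measured on 12 arrays, 4 each of EX, PA and SED, assigned from their titles. Values are log2 expression, deposited by the authors to 2 decimals for 31099 features of the array. MAS5 and RMA are named in the submitters' processing notes without saying which made these values, so the background correction and normalization are not given in the sources used here. The values were used as deposited. The 57 control features were left out. Probe sets in the upper 60% by mean (18626) were fitted with limma 3.58.1 in R 4.3.3, as 3 group means over all 12 arrays with 9 residual degrees of freedom, two-sided, with Benjamini-Hochberg adjustment over all tested probe sets and a threshold of 0.05. Members under this filter have values from a fit of all probe sets, without p. For a pathway gene, the brightest of its tested probe sets was used.

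The members and lists were chosen with earlier results of these data known. All member probe sets are named. So are up to 3 genes of each pathway list, by the smallest p of the moderated F test over the groups. The 5 genes most like Dbh and the first genes of the nerve marker lists are named too. Slc6a2, Slc18a2, Hand2, Gata3, Prph, Gap43, Myl7 and Pmp22 were added after their values were seen. Cell-type lists for atrium, leukocytes, adipocytes, smooth muscle, endothelium and fibroblasts were summarised by array. Alternatives were other scalings, filters, an offset, variance models, array weights, the replicate number as a block, and each array left out. The fit was tested on simulated data. Tables and plots used Python 3.11.15 and matplotlib 3.10.9. Promoters are from RefSeq.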

Additional observations from a re-analysis of the deposited data

Results flagged for a closer look

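In groups of 4 arrays, a value was singled out where its gap to the nearest other, as a share of the range of the group, exceeded Dixon's 95% critical value, which chance gives in about 1 of 20 groups; 3 of the 30 groups tested had one. For Adra1a, PA 3 read 4.85 against 4.05 to 4.13 on the other PA arrays. For Adcy5 (1368298_at), SED 1 read 9.20 against 8.20 to 8.21 on the other SED arrays. For Adcy6 (1367644_at), PA 2 read 7.75 against 7.44 to 7.46 on the other PA arrays.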

How the results depend on the processing

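Over the alternatives, 30 member differences gave 652 values, of which 30 changed sign, in 12 of the differences, and 6 kept their sign and moved by more than the spread between arrays. Members were tested only in PA against SED and EX against PA. Leaving aside Dbh and the dimmer Adcy5 probe set, no tested member passed the threshold under any alternative run. Their adjusted limma p was 0.316 or more. With array weights, limma called 8 probe sets in EX against SED, 1 in PA against SED and 1 in EX against PA, and 2 in EX against SED without SED 1 and SED 3 together, an alternative chosen after seeing the data; leaving out 1 array gave 0 to 2 in EX against SED and 0 in the other comparisons. At an unadjusted limma p under 0.05, EX against PA had 534 probe sets, 1147 with array weights, 998 with only the 2 groups compared, 975 without SED 1, 1032 without SED 1 and SED 3, 920 with no filter on dim probe sets and 328 with a stricter one. EX against SED had 2906, 5514 with no filter and 1543 with a stricter one, and PA against SED 2840, 5494 and 1556, where more or fewer probe sets were tested. Of the 2906, 1732 were higher in EX, against 1141 of 2634 after quantile normalization; of the 2840, 1728 were higher in PA, against 1070 of 2430. Deviations from the group means correlated from -0.208 to 0.134 between same-numbered arrays of different groups and from -0.214 to 0.224 between other-numbered ones. The replicate numbers thus showed no sign of pairing, but with 4 arrays per group this cannot exclude it. With the replicate number as a block 0 were called in each comparison. EX against SED then had 2795 at an unadjusted limma p under 0.05, against 2906. Signs turned with array weights for Adra1b in EX against PA (-0.0027), Adcy5 on 1368298_at in EX against PA (-0.03) and Adcy6 on 1386876_at in PA against SED (0.039, and 0.22 without SED 1 and SED 3 together), and with quantile normalization for Chrm2 in PA against SED (0.055). In EX against SED, 15 of the 220 values changed sign: Adra1b with array weights (-0.015) and array medians centred (-0.0025), Chrm2 with quantile normalization (0.0087), Adra1a (-0.032) and Adcy6 on 1386876_at (0.023) without SED 1 and SED 3 together, and the rest with 1 array left out. The cause was not tested. With 1 array left out, the range was -0.14 to 0.052 for Adra1b and -0.06 to 0.0017 for Chrm2 in PA against SED, -0.54 to 0.16 for Adcy6 on 1386876_at in PA against SED, in EX against SED -0.074 to 0.13 for Adra1a, -0.078 to 0.11 for Adra1b, -0.14 to 0.01 for Chrm2 and -0.032 to 0.0075 for Adcy6 on 1367644_at, and in EX against PA -0.022 to 0.13 for Adra1b, -0.12 to 0.035 for Chrm2, -0.10 to 0.079 for Adcy5 on 1368298_at and -0.0025 to 0.091 for Adcy5 on 1390038_at. Dbh stayed between -0.51 and -0.22 in EX against SED over the alternatives run, the smallest size with an offset of 32, which shrinks dim differences by construction. Dim signal limits Th, Adrb1 and Adra1a in all comparisons.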
